A study of Mus musculus with 11 samples.

Results

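The genes described here encode the signal-transducing part of the T cell receptor: the CD3 chains Cd3d, Cd3e, Cd3g and Cd247, the pre-T cell receptor alpha chain Ptcra, the kinases Lck and Zap70, and the adaptors Lat and Lcp2. They were chosen by symbol, as 9 of the 37224 gene rows of a table made by the authors, and each symbol was borne by 1 row. The table came from RNA-seq of T cell acute lymphoblastic leukaemias (T-ALL) in mice, in which cKit-positive blood progenitors had been given Notch1-IC, an active intracellular form of the Notch1 receptor, by retrovirus and had then been transplanted. Both groups carried Notch1-IC on the C57/BL6 background; they differed in the X-linked gene Utx, which encodes a demethylase of histone H3 lysine 27. The knockout group (Utx-/Y) had 5 samples, 2 from bone marrow and 3 from spleen, and the wild-type group (Utx+/+ or Utx+/Y) had 6, 2 from bone marrow and 4 from spleen; 3 of the 11 samples were repeat runs. The wild-type label allows females (Utx+/+) and the knockout label does not, so sex and tissue may differ between the groups along with Utx. No source used here gives the age of the animals or the promoter of the retrovirus.

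The T cell receptor itself has almost no intracellular part and signals through the CD3 chains, whose tails carry tyrosine motifs known as ITAMs. The Src family kinase Lck phosphorylates these motifs, Zap70 binds them and is activated, and Zap70 then phosphorylates the adaptors Lat and Lcp2 (SLP-76), on which the enzymes of the calcium and Ras pathways assemble. In immature thymocytes, before the alpha chain is rearranged, the product of Ptcra pairs with the beta chain to form the pre-T cell receptor, which uses the same CD3 chains and kinases. NOTCH1 signalling and pre-T cell receptor signalling act at the same thymocyte stage, and Ptcra is a known NOTCH1 target.

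The values were 1 pooled read count per gene and genotype, with a total of 106445530 in the pool of knockout samples and 108015222 in that of wild-type samples. The knockout pool is also written as "without Utx" and the wild-type pool as "with Utx". Pooled values have no replicates, so nothing below could be set against the spread between tumours, and 1 tumour could have given most reads of a gene. Intervals are at the 95% level, exact by Clopper and Pearson, and hold counting error alone. A call of higher or lower without Utx needed a combined count of at least 100, CPM values at least 2-fold apart and an interval that left out 0 on the log2 scale, where CPM is the count scaled to the pool's total. Kdm6a, the table's name for Utx, was at 10.5 CPM without Utx and 58.3 with Utx, which is -2.48 on the log2 scale over the whole gene. The samples are bulk RNA, in which fewer cells of a type and less RNA per cell cannot be told apart.

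None of the 9 genes differed 2-fold between the pools. Against this count of 0 of 9 stand 16.6% of the 13833 genes with at least 100 counts, of which 11.2% were called higher and 5.36% lower. The 9 log2 ratios ran from -0.69 for Lat to 0.81 for Lcp2, with a median of -0.34, beside a median of -0.07 over all genes with enough counts. A ratio below 0 was found for 7 of the 9 genes (77.8%), and for 55.2% of all genes. Most genes of like abundance also lay within 2-fold: of the 5040 genes whose combined counts fell in the range of these 9, 95.2% did, and 64.7% had a ratio below 0. The count of 0 is thus close to what genes of this abundance show. Counting error was small: the interval left out 0 for all 9 genes, 7 below and 2 above it, as it did for 46.7% of all genes below 0 and 37% above. The DEGseq test in the authors' deposited table likewise gave all 9 an adjusted p under 0.05, and 82.7% of the genes with at least 100 counts.

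**Figure D1:**
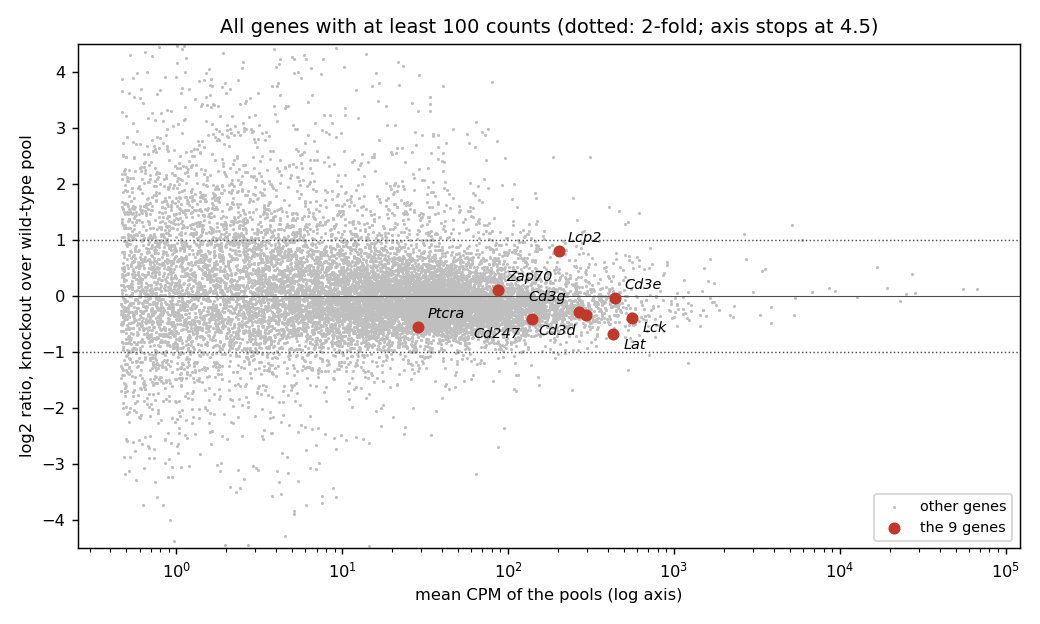
Log2 ratio of knockout over wild-type pool (y axis) against the mean CPM of the pools (x axis, log scale) for genes with at least 100 counts, 1 point per gene; 128 genes lie beyond the axis limit of 4.5. The 9 genes (red) lie between the dotted 2-fold lines, with Lcp2 at 0.81 highest and Lat at -0.69 lowest.

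The RNA of the CD3 chains was abundant in both pools, with Cd3e alike and the others somewhat lower in the knockout pool. Cd3e, the epsilon chain that pairs with either the delta or the gamma chain (ENSMUSG00000032093, chromosome 9, 44998740 to 45009627 on the minus strand, GRCm38), had 46374 counts without Utx and 48165 with it, or 436 and 446 CPM. Its log2 ratio of -0.03 (95% interval -0.05 to -0.02) was the smallest in size of the 9, and its sign depended on the scaling, at 0.05 with TMM and 0.03 under the median of ratios. Cd3d, the delta chain (ENSMUSG00000032094, chromosome 9, 44981786 to 44987339, plus strand), had 27707 and 35486 counts, or 260 against 329 CPM. This is a log2 ratio of -0.34 (-0.36 to -0.31), or 79.2% of the wild-type level. Cd3g, the gamma chain (ENSMUSG00000002033, chromosome 9, 44969572 to 44980431, minus strand), had 25575 and 31505 counts, or 240.3 against 292 CPM. The log2 ratio was -0.28 (-0.30 to -0.26). Cd247, the zeta chain, which forms a dimer and carries more ITAMs than any of the other chains, lies on chromosome 1 (ENSMUSG00000005763, 165788681 to 165877277, plus strand). It had 12623 and 17119 counts, or 119 against 158 CPM. Its log2 ratio, -0.42 (-0.45 to -0.39), was the lowest of the 4 chains. The last part of Cd247 overlaps Pou2f1 on the other strand, which was at -0.52. As no source used here says whether counting used the strand, reads of the shared stretch cannot be told apart.

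Markers of other cells also differed between the pools. Erythroid markers summed to 26074 CPM without Utx and 13131 with it, with 4 of 11 measured genes called higher and none lower. Of 10 measured markers of stroma and endothelium 5 were called higher and 1 lower, and their sums were 153 against 185 CPM. No marker of either list was at 0 in a pool, and their part in the CD3 levels was not tested.

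The composition of the CD3 group can be read without any scaling of the pools, by dividing each chain by Cd3e within a pool. The knockout pool had 0.60 counts of Cd3d and the wild-type pool 0.74 for each count of Cd3e, a log2 difference of -0.30 (-0.33 to -0.27). For Cd3g the ratios were 0.55 and 0.65, with a log2 difference of -0.25 (-0.28 to -0.22). For Cd247 they were 0.27 and 0.36, with a log2 difference of -0.38 (-0.42 to -0.35). All 3 chains were thus lower beside Cd3e in the knockout pool, by less than 2-fold and by more than counting error.

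Cd3g, Cd3d and Cd3e lie together on chromosome 9 in a stretch of 40056 bases. Cd3g and Cd3d are read away from each other, with 1355 bases between their starts in the GENCODE M21 annotation, and their log2 ratios, -0.28 and -0.34, were the closest of any pair of CD3 chains. The windows before both starts are shown for this reason. Each is the 250 bases before the RefSeq start (GRCm38.p6), 5′ to 3′ on the gene's strand, with capitals on matches to short core motifs of factors active in T cells on either strand: RBPJ (TGGGAA), ETS (GGAAGT), RUNX (TGTGGT), TCF/LEF (CTTTGA) and the E-box (CAGNTG). Cd3g is at chr9:44980432-44980681, minus strand, and Cd3d at chr9:44981536-44981785, plus strand.
Cd3g: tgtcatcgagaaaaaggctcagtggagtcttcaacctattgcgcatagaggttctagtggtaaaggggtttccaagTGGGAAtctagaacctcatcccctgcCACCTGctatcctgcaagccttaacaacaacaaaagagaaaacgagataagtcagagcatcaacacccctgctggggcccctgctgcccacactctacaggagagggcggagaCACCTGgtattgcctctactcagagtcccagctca
Cd3d: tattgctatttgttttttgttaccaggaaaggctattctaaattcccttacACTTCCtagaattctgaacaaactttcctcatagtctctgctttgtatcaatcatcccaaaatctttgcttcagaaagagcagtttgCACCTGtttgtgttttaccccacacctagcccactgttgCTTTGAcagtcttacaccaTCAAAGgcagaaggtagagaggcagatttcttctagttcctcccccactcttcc
The Cd3g window held 2 E-box matches and 1 RBPJ match, and the Cd3d window 2 TCF/LEF matches, 1 ETS match and 1 E-box match. Over all 32851 RefSeq windows of this length, 44.8% held an E-box, 21.6% an RBPJ, 19.7% an ETS, 14.0% a RUNX and 13.8% a TCF/LEF match. Among the 12 windows of the 9 genes, where Lck has 2 starts and Zap70 3, an E-box was found in 9, an RBPJ match in 7, an ETS match in 6, a TCF/LEF match in 3 and a RUNX match in 2. A match shows these letters only, and the data do not show which starts were used.

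The other protein-coding genes within 100 kb of the CD3 genes did not share 1 direction. Of the 6 neighbours, all with at least 100 counts, the log2 ratios ran from -1.59 to 0.42. Mpzl2, an adhesion molecule gene next to Cd3e, was called lower at -1.59 (-1.78 to -1.42) on 340 against 1043 counts, while Ube4a, next to Cd3g, was at 0.42 and Mpzl3 at -0.07. Kmt2a, a histone H3 lysine 4 methyltransferase gene, was at 0.06.

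The pre-T cell receptor chain was the least abundant of the 9. Ptcra (ENSMUSG00000036858, chromosome 17, 46755663 to 46763712, minus strand) had 2477 counts without Utx and 3705 with it, or 23.3 against 34.3 CPM. The log2 ratio was -0.56 (-0.63 to -0.49), or 67.8% of the wild-type level; 15.8% of all genes with enough counts had a lower ratio. Beside Cd3e the knockout pool had 0.053 and the wild-type pool 0.077 counts of Ptcra, a log2 difference of -0.53 (-0.60 to -0.45), so Ptcra stood lower against the CD3 epsilon chain as well as against depth. Its partner in the pre-T cell receptor is the beta chain, whose constant genes went opposite ways: Trbc1 was called higher at 1.05 on 17993 against 8818 counts and Trbc2 lower at -1.19 on 78765 against 182316 counts. The alpha chain constant gene Trac was at 0.59, on 11210 against 7571 counts. The constant genes of 1 chain are near-identical, so that their split is uncertain. Taken as a sum, added after their values were seen, Trbc1 and Trbc2 had 96758 counts without Utx and 191134 with it, or 909 against 1770 CPM, a log2 ratio of -0.96 (-0.97 to -0.95).

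**Figure D2:**
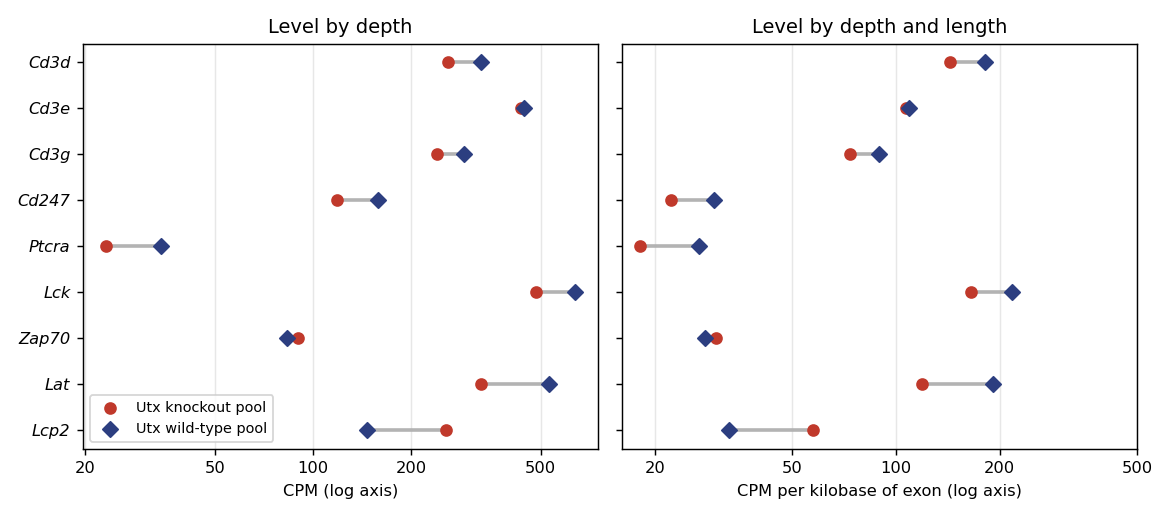
Level of each gene in the knockout pool (red circles) and the wild-type pool (blue diamonds), as CPM (left) and as CPM per kilobase of exon (right), on log axes with 1 pooled value per point and no error bar. The pools lie close for Cd3e and Zap70, and Lcp2 and Zap70 are the genes with the knockout pool on the right.

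Neither kinase was called, and Lck had the most counts of the 9 genes. Lck (ENSMUSG00000000409, chromosome 4, 129548344 to 129573641, minus strand) had 51586 and 68624 counts, or 485 against 635 CPM, and ranked 122 by combined count among the 13833 genes. Its log2 ratio was -0.39 (-0.41 to -0.37), or 76.3% of the wild-type level. Fyn, the Src family kinase that acts beside Lck in T cells, was at -0.28 on 15103 against 18611 counts. Without Utx the ratio of Lck to Fyn was 3.42 and with Utx 3.69, a log2 difference of -0.11 (-0.15 to -0.08). Both Src family kinases were therefore somewhat lower, by similar amounts.

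Zap70 was nearly level between the pools, whereas its relative Syk was not. Zap70 (ENSMUSG00000026117, chromosome 1, 36761798 to 36782818, plus strand) had 9560 and 9008 counts, or 89.8 against 83.4 CPM. This is 0.11 on the log2 scale (0.07 to 0.15). Syk, which can bind the same ITAMs and is known to be used by the pre-T cell receptor and by B cell and Fc receptors, had 6567 counts without Utx and 622 with it. At 61.7 against 5.76 CPM, its log2 ratio was 3.42 (3.30 to 3.54), or 10.7-fold. The wild-type pool held 14.5 counts of Zap70 for each count of Syk and the knockout pool 1.46, a log2 difference of -3.31 (-3.44 to -3.19). Zap70 thus made up 93.5% of the counts of these kinases in the wild-type pool and 59.3% in the knockout pool. These counts are not per length, so the shares show the change between pools and not the relative RNA level of the kinases. Syk is also expressed by B cells, myeloid cells, mast cells and platelets. In the knockout pool, markers of granulocytes and monocytes were called higher for 11 of 18 measured genes, of megakaryocytes and platelets for 4 of 9, and of mast cells and basophils for 5 of 5. Of 7 measured markers of B cells none was called higher with column totals, and Pax5 (-2.04) and Spib (-3.01) were called lower. Cd79b (0.98) and Blk (0.87) lay on the other side of 0. Cd79b was called higher with TMM, the median of ratios and the depth without mitochondrial and erythroid genes. The part of all these cells in the level of Syk was not tested.

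**Figure D3:**
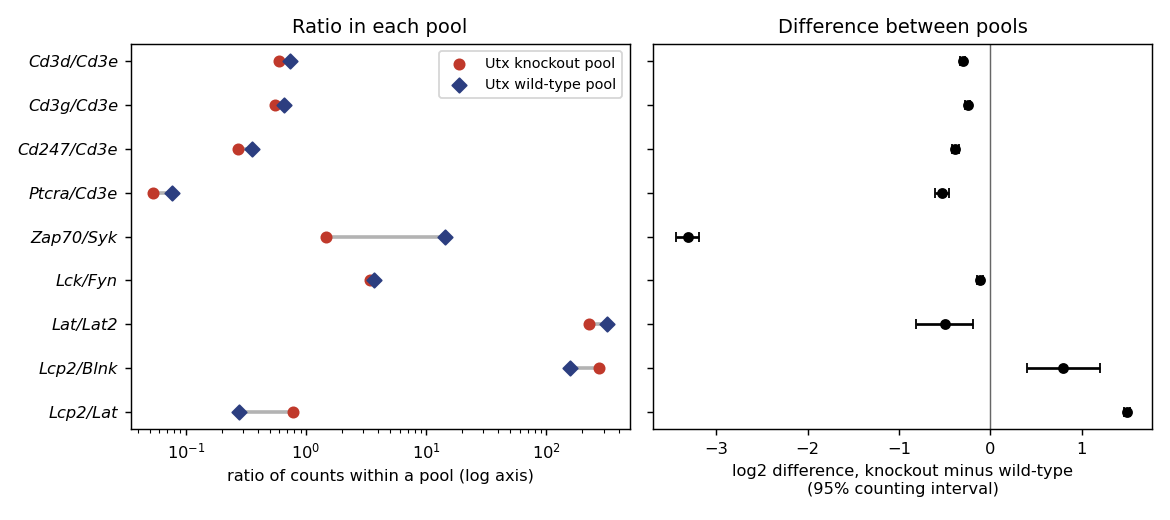
Left, count ratio of each gene to a partner within the knockout pool (red circles) and the wild-type pool (blue diamonds), on a log axis; right, log2 difference of that ratio, knockout minus wild-type, with the 95% counting interval as bars. Zap70 over Syk lies at -3.31, far from the other pairs, which run from -0.53 to 1.49.

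The adaptors Lat and Lcp2 had the lowest and the highest ratio of the 9. Lat, the membrane adaptor that Zap70 phosphorylates (ENSMUSG00000030742, chromosome 7, 126363824 to 126369570, minus strand), had 34997 counts without Utx and 57136 with it, or 329 against 529 CPM. Its log2 ratio was -0.69 (-0.71 to -0.67), or 62.2% of the wild-type level. Lcp2, the cytosolic adaptor SLP-76 that joins Lat through Grap2 (ENSMUSG00000002699, chromosome 11, 34046920 to 34092295, plus strand), had 27305 and 15828 counts, or 257 against 147 CPM. Its log2 ratio was 0.81 (0.78 to 0.84), or 1.75-fold. Only these genes of the 9 passed 1.5-fold, Lat lower and Lcp2 higher, as did 14.7% (lower) and 18.9% (higher) of all genes with enough counts. The ratio of Lcp2 to Lat, a pair chosen after their values were seen, was 0.78 without Utx and 0.28 with it, a log2 difference of 1.49 (1.46 to 1.53).

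The windows before the starts of Lat and Lcp2 are shown in the same way, as these genes mark the ends of the range. Lat is at chr7:126369569-126369818, minus strand, and Lcp2 at chr11:34046678-34046927, plus strand.
Lat: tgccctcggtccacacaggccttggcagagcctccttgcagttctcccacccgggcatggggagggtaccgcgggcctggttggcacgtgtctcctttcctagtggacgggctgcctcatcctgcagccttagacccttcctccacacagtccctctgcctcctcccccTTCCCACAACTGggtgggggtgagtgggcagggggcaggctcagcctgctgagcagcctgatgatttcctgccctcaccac
Lcp2: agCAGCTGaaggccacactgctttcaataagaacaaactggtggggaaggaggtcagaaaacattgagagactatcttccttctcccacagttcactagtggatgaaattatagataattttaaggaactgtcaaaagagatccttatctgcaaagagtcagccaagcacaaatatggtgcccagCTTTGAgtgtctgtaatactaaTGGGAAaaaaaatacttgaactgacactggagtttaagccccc
The Lat window held 1 RBPJ and 1 E-box match, which lie next to each other, and a G and C content of 65.2%. The Lcp2 window held 1 match each of RBPJ, TCF/LEF and the E-box, and a G and C content of 41.2%. RBPJ and E-box matches were present before both genes, and their part in the ratios was not tested.

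Lat and Lcp2 are also used outside T cells, in mast cells and platelets, and Lcp2 in myeloid cells. The levels of other cells' markers are therefore given beside them. The summed level of the mast cell and basophil list was 22.1 CPM without Utx and 2.99 with it, and that of the megakaryocyte and platelet list 50.4 against 24.6 CPM, with no marker of either list at 0 in a pool. The granulocyte and monocyte list summed to 2699 against 2084 CPM, again with none at 0. Natural killer cells express Zap70, Lck, Lat and Cd247. Their marker list summed to 235 against 247 CPM with Gzma taking most of the counts, and 5 of its 7 measured genes were called higher; Klra8 was at 0 in both pools. The part of these cells in the levels of Lat, Lcp2 and Zap70 was not tested. The relatives of these adaptors in B and myeloid cells had few counts: Lat2 had 154 against 178 counts and Blnk 99 against 100. The ratio of Lat to Lat2 was 227 and 320.1, a log2 difference of -0.50 (-0.81 to -0.19), and that of Lcp2 to Blnk was 274 and 157, a difference of 0.80 (0.40 to 1.20). The intervals are wide because of the few counts of Lat2 and Blnk. Lcp2 lies within 4930469K13Rik on the other strand, which had 35 and 16 counts, few beside those of Lcp2.

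**Figure D4:**
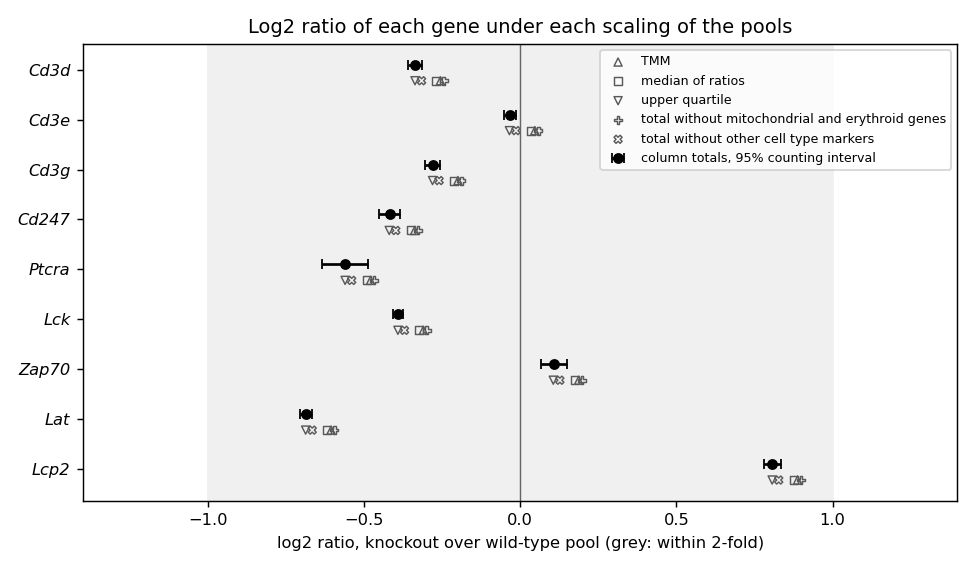
Log2 ratio of knockout over wild-type pool for each gene, scaled to column totals (black, bars are the 95% counting interval) and under 5 other scalings (open symbols); the grey band marks 2-fold. The other scalings move every gene alike, by at most 0.09, and only Cd3e crosses 0.

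Levels can be compared between genes only per length. Per kilobase of exon, Lck was highest in the knockout pool at 165 CPM per kilobase, followed by Cd3d (143), Lat (119), Cd3e (107), Cd3g (73.5), Lcp2 (57.5), Zap70 (30.0), Cd247 (22.3) and Ptcra (18.1). In the wild-type pool Lck was again highest at 217, followed by Lat (191) and Cd3d (181), so that Lat and Cd3d changed places. Cd3e (109) and Cd3g (89.2) came next. Lcp2 (32.9), Cd247 (29.7), Zap70 (27.9) and Ptcra (26.7) lay close together in that pool, and there is no spread between tumours to set against their order. With the longest transcript in place of all exons, the order of these 4 in the wild-type pool became Cd247 (53.6), Lcp2 (40.2), Zap70 (37.1) and Ptcra (26.7). With that length, Cd3e moved up to second place in the knockout pool, at 171, and Cd247 and Zap70 changed places. Lck was first and Ptcra last with either length in both pools. All 9 genes ranked in the upper part of the table, from 122 for Lck to 5161 for Ptcra of 13833 by combined count; most of them are the defining markers of the labelled cell type, T cell leukaemia.

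Genes that act with these 9 were described from 8 lists, of which 130 genes were found and 127 had at least 100 counts. The listed symbols Bcap, Trdc, Trgc1, Trgc2, Trgc3, Trgc4, Tcrb-C and Tcra-C had no row, so the gamma and delta chain constant genes were not measured under these names. Of these 127, 18 were called higher and 2 lower, together 15.7%, beside 16.6% of all genes. By direction, 11.2% of all genes were called higher and 5.36% lower, so the calls in the lists leaned more to higher. Their median log2 ratio was 0.23, above the -0.34 of the 9 genes and the -0.07 of all genes. Neither the counts nor the medians test a list.

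Kinases of the Src, Syk and Tec families had the highest share of calls among the larger lists. Beside 11.2% of all genes called higher, 5 of these 14 were, with none lower and a median of 0.73. After Syk the called kinases were Bmx (1.80 on 125 against 36 counts), Txk (1.61), Src (1.39 on 163 against 63 counts) and Btk (1.27). Txk is a T cell kinase of the Tec family, with 15.1 against 4.94 CPM, whereas Btk is that of B and myeloid cells, with 14.7 against 6.07 CPM. The part of B and myeloid cells in the level of Btk was not tested. Tec was lowest at -0.86.

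Of the 15 phosphatases and ubiquitin ligases, 2 were higher, none was lower and the median was 0.37. Inpp5d, the lipid phosphatase SHIP-1, was called higher at 95.6 against 38.9 CPM (log2 ratio 1.30, 1.25 to 1.35). Ubash3b and the phosphatase Ptpn11 were lowest at -0.59 and -0.53. Ptprc (CD45), the phosphatase that activates Lck, was at 0.42, a gene named for its known role. Inpp5d is also abundant in myeloid cells, for which 11 of 18 markers were called higher; their part was not tested.

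Among 32 further adaptors 2 were higher, 1 was lower and the median was 0.14. Grap2 (GADS), which links Lcp2 to Lat, was called higher at 43.7 against 20.1 CPM (1.12, 1.04 to 1.19). The knockout pool thus held more RNA of Lcp2 and of Grap2, and less of Lat, to which both attach. Tespa1, a thymocyte adaptor, was at 1.00, a call on the edge of 2-fold that ended with upper quartile scaling. Shb was lower at -1.60 (-1.78 to -1.43) on 365 against 1126 counts, and Pag1, which brings the Lck inhibitor Csk to the membrane, was at -0.83.

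The phospholipase, calcium and diacylglycerol arm had 3 of 30 genes higher, none lower and a median of 0.17. Dgka, the kinase that removes diacylglycerol and so limits Ras activation, was 7.92-fold higher at 135 against 17.1 CPM (2.99, 2.92 to 3.06 on the log2 scale). Its relative Dgkz was lowest of the list at -0.76 on 8673 against 14858 counts. Rasgrp1, the exchange factor that diacylglycerol activates, was at 1.02 (0.97 to 1.06), and Ppp3ca, a catalytic subunit of calcineurin, at 1.15 (1.10 to 1.20). Nfatc1 was at -0.63. Plcg1, the phospholipase that binds Lat, was at 0.41, named for its known role. None of the 12 exchange factors and actin regulators was called, from Vav2 at -0.78 and Rltpr at -0.61 to Arhgef6 at 0.40 and Vav3 at 0.90 on 131 against 71 counts, with a median of 0.03.

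Of the 15 coreceptors and costimulatory receptors, 3 were higher, none was lower and the median was 0.22. Ctla4, an inhibitory receptor, was at 48.1 against 4.43 CPM (3.44, 3.30 to 3.58), Btla, also inhibitory, at 25.9 against 5.51 CPM (2.23, 2.10 to 2.36), and the costimulatory receptor Icos at 12.0 against 3.68 CPM (1.71, 1.54 to 1.87). The lowest were Cd6 at -0.72 and Cd4 at -0.41. Cd4 and Cd8 carry Lck, itself at -0.39, to the receptor. The genes of the Cd8 coreceptor, named for this role, were at -0.15 for Cd8a and 0.75 for Cd8b1, so that the coreceptor genes did not share 1 direction.

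**Figure D5:**
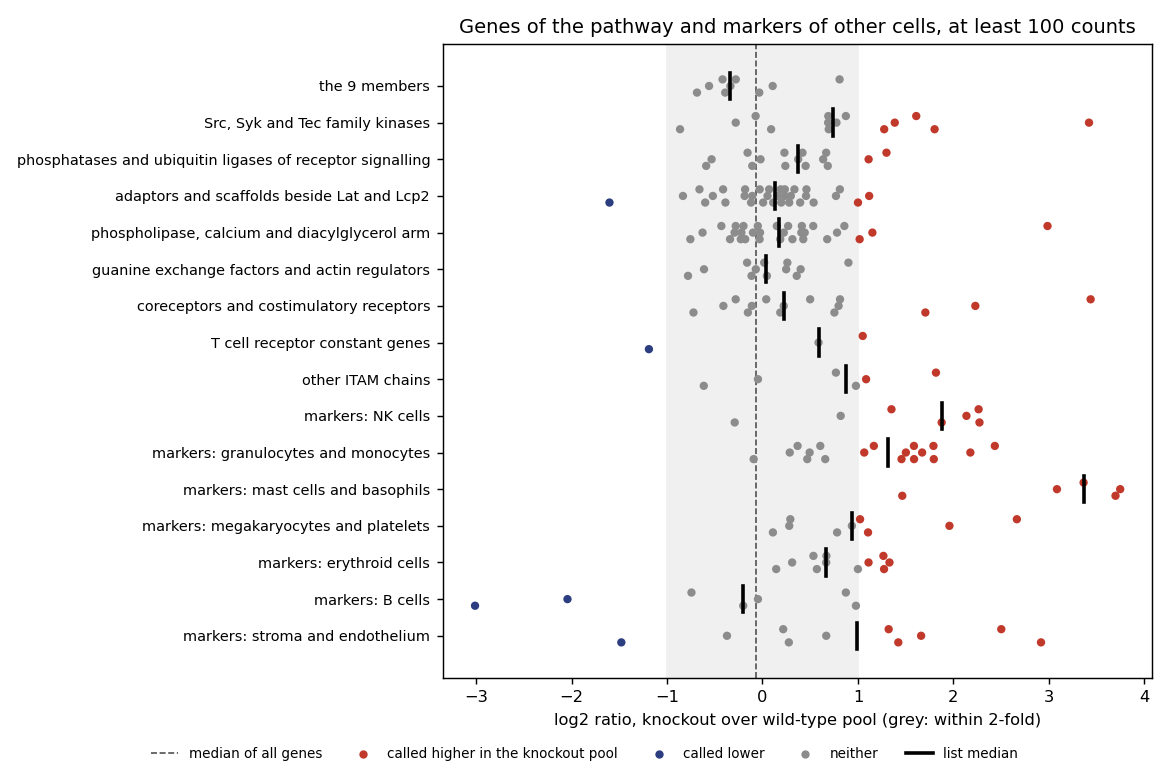
Log2 ratio of knockout over wild-type pool for every gene with at least 100 counts in each list (points; red called higher, blue called lower, grey neither), with the list median (black bar), the median of all genes (dashed line) and the 2-fold band (grey). The 9 genes have a median of -0.34, below the medians of the 8 pathway lists, which run from 0.03 to 0.87. The list of T cell receptor constant genes has only 3 measured genes, with a median of 0.59 but a log2 ratio of -0.86 for their summed counts.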

How the data were processed

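RNA was poly(A)-selected and per the labels' protocols sequenced as strand-marked libraries, 50 bases from 1 end. CASAVA and TopHat were used with the build mm9, per the submitters' processing notes. No source used here gives the annotation, the counting tool or its strand setting. The deposited table holds whole read counts that the authors pooled by genotype, as its header and values show; the samples in each pool are not named. It also holds log2 fold changes, a z score and p-values and q-values from DEGseq, deposited by the authors, of which the Benjamini-Hochberg q was used. The first count column was taken as the knockout pool from the order in the table's title, and the level of Kdm6a was then checked.

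CPM used the column totals of all gene rows as depth; log2 ratios used a pseudocount of 0.5, and ratios between genes within a pool took a 95% interval from the 4 counts. Pooled reads are not independent molecules, so intervals can be too narrow. No test across samples was possible with 0 columns of per-sample values. The self-check on simulated counts passed. Lengths and positions came from GENCODE M21 (GRCm38), not mm9, matched by Ensembl identifier, and promoter windows from RefSeq (GRCm38.p6), which held all 9 genes. TMM and upper quartile factors came from edgeR 4.0.16, other steps from Python 3.11.15.

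The genes and lists were chosen with earlier results of these data known. In each list the called genes and the 2 highest and 2 lowest with at least 100 counts are named, except where a gene is not reported here; others named for their known role were chosen after their values were seen.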

Additional observations from a re-analysis of the deposited data

How the results depend on the processing

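No member was called at 2-fold under the 5 other scalings, with a combined count of at least 20 or 500, or with the authors' adjusted p in place of the interval. With a 1.5-fold minimum 1 member was called higher and 1 lower, and of the pathway genes 38 higher and 13 lower in place of 18 and 2; these are 29.9% and 10.2%, beside 18.9% and 14.7% of all genes at that minimum. Under the other settings 16 to 19 pathway genes were called higher and 2 lower: Cd79b was added with TMM, the median of ratios and the depth without mitochondrial and erythroid genes, Tespa1 ended with upper quartile scaling, and Bmx and Src ended with the higher count minimum. The scalings moved the median of all genes from -0.07 to at most 0.02. The log2 ratio of Cd3e ran from -0.03 to 0.06, of Zap70 from 0.11 to 0.20, of Lat from -0.69 to -0.59 and of Lcp2 from 0.81 to 0.90. A pseudocount of 5 left all 9 ratios between genes inside their intervals. Counting error was small, with a median half-width of 0.024 and a largest one of 0.074, for Ptcra, so depth does not limit these ratios; the lack of values per tumour does. No paired analysis was possible because the deposited columns are pools that carry no replicate number.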

Other observations

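Other signalling and receptor chains, most of which carry ITAMs or pair with chains that do, were measured beside the CD3 chains. Of 6 genes, 2 were called higher and none lower, with a median log2 ratio of 0.87. Fcgr4, an Fc receptor of myeloid cells, was at 14.6 against 4.15 CPM (log2 ratio 1.82, 1.67 to 1.97), and Tyrobp (DAP12), an ITAM adaptor of myeloid and natural killer cells, at 21.9 against 10.3 CPM (1.09, 0.98 to 1.19). Fcer1g, the Fc receptor gamma chain, which can pair with the product of Cd247, was at 0.77 on 2291 against 1364 counts. Hcst (DAP10), which signals without an ITAM, was lowest at -0.62 on 1066 against 1657 counts, and Cd79a, of the B cell receptor, was at -0.05. Hcst lay below the 4 CD3 chains, which were at -0.42 to -0.03, and Cd79a lay within their range. Fcer1g, Cd79b (0.98), Tyrobp and Fcgr4 lay above the CD3 chains. Of 18 measured granulocyte and monocyte markers 11 were called higher and none lower, with a median of 1.31, and their part in these genes was not tested.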
